A study of Homo sapiens with 20 samples.

Results

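The replicative histone gene clusters of the short arm of human chromosome 6 (band 6p22) were described here as peaks of accessible chromatin in 2 windows of the hg19 genome build, a longer one of 275 kb at 6:26015000-26290000 and a shorter one of 100 kb at 6:27770000-27870000. A peak belonged to the clusters if it overlapped either window by at least 1 bp. By this rule 574 of the 1407450 peaks in 7 lists were members, 418 in the longer window and 156 in the shorter one. The rule used position alone, so the number, width and height of the peaks were free to vary.

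The study asked how the fusion proteins of epithelioid hemangioendothelioma, a vascular sarcoma, change chromatin relative to the full-length proteins they are built from. Open DNA was measured by ATAC-seq, in which the Tn5 transposase cuts and tags accessible DNA, in SW872 cells, an established human liposarcoma line. All 20 libraries came from cells stably transduced with a vector, so the control cells carried one too, and the replicates of a group came from separate transductions. The groups were the empty vector (EV), TAZ4SA and YAP5SA (TAZ and YAP with serines of the Hippo kinase sites changed to alanine, which keeps them active), full-length CAMTA1 and TFE3, and both fusions, TAZ-CAMTA1 and YAP-TFE3. TFE3 had 2 libraries and every other group 3, the third EV library was titled a redo, and the YAP-TFE3 libraries were titled Yap5SA-TFE3. The cells are liposarcoma cells and not the endothelial cells in which the fusions arise. The deposited data held 1 peak list per vector, made by the Genrich caller, so the values carry no error between replicates, no test was made, and sequencing depth is unknown. All intervals below cover counting error only.

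Replicative histone genes encode the core histones H2A, H2B, H3 and H4 and the linker histone H1, which package newly made DNA, and they are switched on together as cells enter S phase. They have no introns, lie close together in clusters, and give short transcripts that end in a stem-loop in place of a poly(A) tail. Their promoters are compact, with a TATA box and CCAAT boxes, and H2A and H2B genes often lie head to head around a shared promoter that holds an octamer bound by OCT1. Because every dividing cell needs them, the clusters are used here as a housekeeping stretch of the genome.

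RefSeq lists 55 protein-coding genes of this kind on chromosome 6 (assembly GRCh38.p14), in 4 runs of neighbours. The run from H1-1 to H4C8 holds 32 of them, with 5 H1, 4 H2A, 8 H2B, 7 H3 and 8 H4 genes, and the run from H2BC13 to H2BC17 holds 16. Between these runs lies a run of 5 genes, from H2BC11 to H2AC12. The reference at hand and the peaks are of different builds, so no peak was assigned to a gene and the label of the windows could not be checked gene by gene. Promoter sequences were found for 50 of the 55 genes. To show what such a promoter looks like, the 150 bases before the start of the first gene of each histone class with a promoter sequence in the run of 32 genes are given 5′ to 3′ on the gene's strand, with TATAAA as well as CCAAT and the octamer ATTTGCAT in capitals on either strand (read from the other strand, the last are ATTGG and ATGCAAAT).
H1-1: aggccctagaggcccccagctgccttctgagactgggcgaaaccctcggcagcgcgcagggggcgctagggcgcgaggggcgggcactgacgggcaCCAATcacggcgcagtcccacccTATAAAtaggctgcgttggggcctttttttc
H2AC4: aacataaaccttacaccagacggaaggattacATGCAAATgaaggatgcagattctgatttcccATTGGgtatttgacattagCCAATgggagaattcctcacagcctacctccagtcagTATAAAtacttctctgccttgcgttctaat
H2BC3: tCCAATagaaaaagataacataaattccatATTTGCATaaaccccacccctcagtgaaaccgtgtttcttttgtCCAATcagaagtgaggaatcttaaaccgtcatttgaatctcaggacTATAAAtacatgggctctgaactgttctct
H3C1: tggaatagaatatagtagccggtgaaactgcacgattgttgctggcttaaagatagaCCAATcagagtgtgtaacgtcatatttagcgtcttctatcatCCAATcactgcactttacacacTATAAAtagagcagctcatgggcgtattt
H4C2: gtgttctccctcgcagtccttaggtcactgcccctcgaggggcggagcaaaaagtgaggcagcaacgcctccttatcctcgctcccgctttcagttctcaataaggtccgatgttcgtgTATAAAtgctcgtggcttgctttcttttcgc
In all 5 the TATAAA lies close to the start, and the H2A and H2B examples carry the octamer upstream of it. Within 250 bases before the start, on either strand, TATAAA occurred in 33 of the 50 histone promoters (66%) and in 10.7% of 35116 RefSeq promoters. CCAAT occurred in 43 of the 50 (86%) against 32%, in every H1, H2A, H2B and H3 promoter but in 3 of 10 H4 promoters. The octamer occurred in 21 of the 50 (42%) against 1.63%, in 9 of 11 H2A and 12 of 15 H2B promoters and in 0 of the H1, H3 and H4 promoters. The motif matches are letters only. Of 12 neighbouring pairs of an H2A and an H2B gene with promoter sequences, 9 pointed away from each other, and in all 9 the promoter windows overlapped, so one stretch of DNA lies before both genes.

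Peaks were dense in the histone windows of every list. The number of member peaks was 78 in EV, 96 in TAZ4SA, 77 in CAMTA1, 76 in TAZ-CAMTA1, 92 in YAP5SA, 75 in YAP-TFE3 and 80 in TFE3. TAZ4SA and YAP5SA, both full-length activated co-activators, stood above the other lists, which lay within 5 peaks of each other. Per 100 kb this was between 20 and 25.6 peaks. Divided by the density of the whole list, it was 3.77 in EV, 5.20 in TAZ4SA, 2.84 in CAMTA1, 2.65 in TAZ-CAMTA1, 3.29 in YAP5SA, 2.63 in YAP-TFE3 and 4.23 in TFE3. The windows were thus richest relative to the whole list in the 3 shortest lists, TAZ4SA, TFE3 and EV. The 1480 kb between the windows were also dense, at 2.29 to 2.97 times the list density, so the number of peaks set the windows only partly apart from their neighbourhood. That stretch may hold replicative histone genes itself, as a run of 5 lies between the runs of 32 and 16. The builds differ, so this was not checked.

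The number of member peaks varied less between lists than the length of the lists did. The number of places with a peak was less even than the number of peaks. With overlapping peaks of all lists merged, it ran from 35 in TAZ4SA to 61 in both fusion lists. The coefficient of variation (CV, the SD over the 7 lists divided by their mean) was 10.3% for member peaks and 19.4% for the whole lists, and the highest number was 1.28 times the lowest, against 1.55 times for whole lists. With lists cut to the same length by −log10 p or by area, the member CV was higher, at 15.8% or 16.2%. The windows did not follow list length. The TAZ4SA list, the shortest, held 0.892 times as many peaks as EV over the genome and 1.23 times as many in the windows. For YAP-TFE3 these ratios were 1.38 and 0.962. The longer window, with 56, 64, 56, 57, 68, 59 and 58 peaks in the order of lists given above, had a CV of 7.66%. The shorter window, with 22, 32, 21, 19, 24, 16 and 22 peaks, had a CV of 22.4%, and its highest number, in TAZ4SA, was 2 times its lowest, in YAP-TFE3.

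Tiling the genome put these numbers beside other stretches of the same length. Of 9510 tiles of 275 kb with any peak, 94.3% held fewer peaks on average over the lists than the 59.7 of the longer window, and 99.0% had fewer bases covered. The CV of peak number was set against tiles whose mean number was within 1.5 times that of the window. Of 1344 such tiles for the longer window (39.8 to 89.6 peaks), 0.298% had a lower CV, and the median tile had 23.3%. For the shorter window the share was 34.8% of 3685 tiles (14.9 to 33.4 peaks), with a median of 25.9%. Against tiles of like number, the longer window thus lay near the low end and the shorter one did not. These ranks are of peak number and not of the number of places with a peak.

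**Figure D1:**
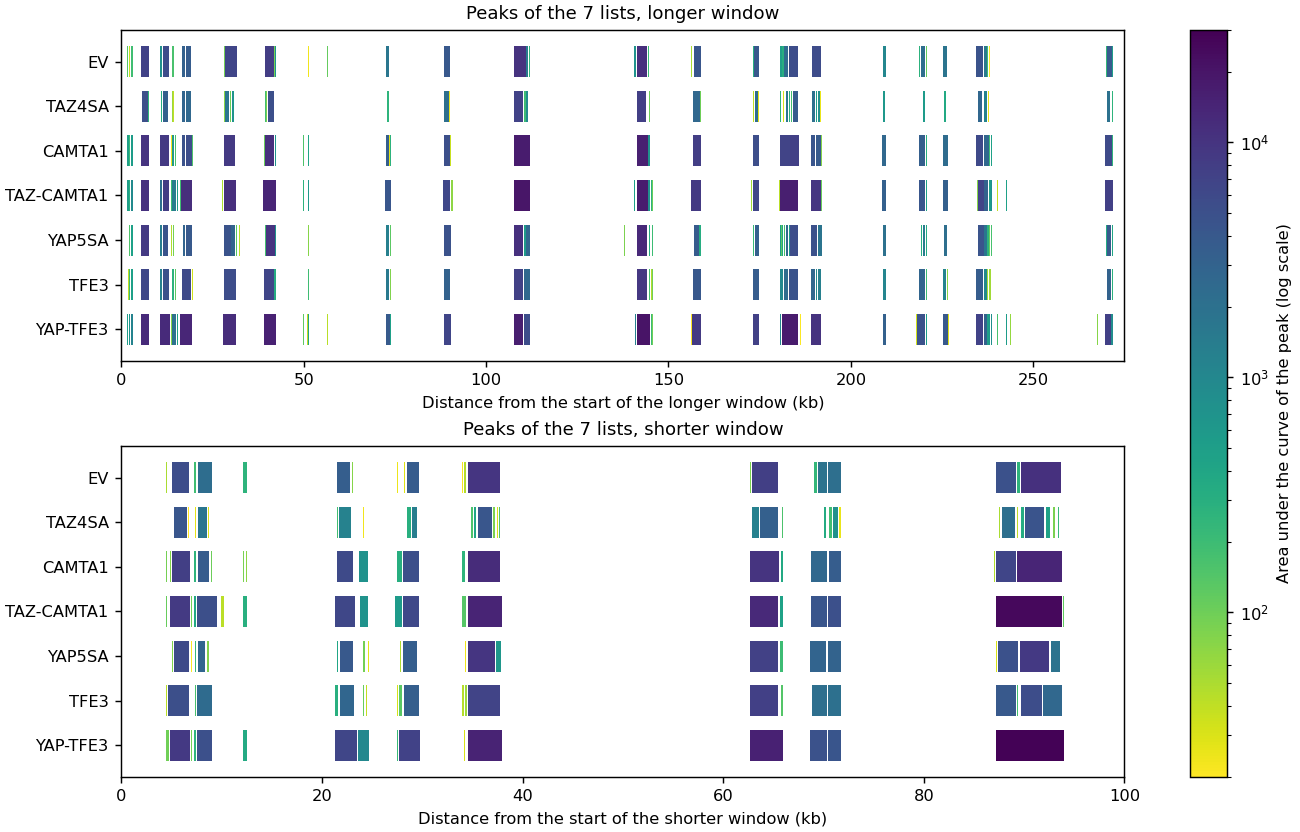
Each bar is a peak drawn at its distance (kb) from the start of the longer (top) or shorter (bottom) window, in 1 row per list, and coloured by its area under the curve on a log scale. The same blocks recur in all 7 rows, and stretches of up to 25.8 kb hold no peak in any list.

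Peaks in the windows were wider than the typical peak of their list. Member peaks had a median width of 351 bp in EV, 225 bp in TAZ4SA, 365 bp in CAMTA1, 373.5 bp in TAZ-CAMTA1, 304.5 bp in YAP5SA, 355 bp in YAP-TFE3 and 312 bp in TFE3, while the medians of the whole lists lay between 169 and 217 bp. The member median was above that of its list in all 7. Between the windows the medians lay between 221 and 273 bp, below the member median in every list but TAZ4SA, where the stretch between had 235 bp. The bases covered were 66679 in EV, 47865 in TAZ4SA, 73308 in CAMTA1, 81463 in TAZ-CAMTA1, 65235 in YAP5SA, 81193 in YAP-TFE3 and 68748 in TFE3. The share of the windows covered was 5.92 to 7.81 times the share of the genome covered in the same list, whereas the stretch between the windows reached 2.74 to 3.22 times. Here the ranges over lists did not overlap, unlike those of peak number. The CV of bases covered was 16.6%, against 25.1% for whole lists. Without the TAZ4SA list, the lowest in both, these were 9.85% and 19.1%.

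Peaks lay in tight groups with long empty stretches between them. The median gap to the next member peak was 337 bp in EV, 279 bp in TAZ4SA, 354 bp in CAMTA1, 366.5 bp in TAZ-CAMTA1, 241.5 bp in YAP5SA, 449 bp in YAP-TFE3 and 310.5 bp in TFE3. The smallest gap was 101 or 102 bp in every list, since the caller joins what lies closer, and the largest lay between 27011 and 30637 bp. The lists TAZ4SA and YAP5SA had the most member peaks and also the smallest gaps. The longest stretch with no peak in any list ran over 25.8 kb at 6:26127081-26152912 in the longer window and over 24.7 kb at 6:27807991-27832643 in the shorter one. In all, 7 and 2 stretches of at least 10 kb were empty in every list.

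The strength of a peak is given as the area under the curve, the caller's statistic summed over the peak, for which the smallest value in any list was 20. This sum grows with the width of a peak as well as with its height. The −log10 p of the summit, which is not summed over the width, had member medians of 5.95 to 7.46. Whole lists had medians of 4.67 to 4.87. The median area of member peaks was 286 in EV, 201 in TAZ4SA, 485 in CAMTA1, 526 in TAZ-CAMTA1, 349 in YAP5SA, 605 in YAP-TFE3 and 289 in TFE3. These medians stood at percentile 70.2, 66.3, 71.7, 72.2, 71.6, 73.4 and 63.7 of their own lists, so the typical member peak ranked alike in lists whose areas differed 3.01-fold at the member median. Peaks among the top 10% of their list by area made up 26 of 78 member peaks in EV (33.3%, 95% Wilson interval 23.9 to 44.4) and 22 of 96 in TAZ4SA (22.9%, 15.6 to 32.3). They were 28 of 77 in CAMTA1, 28 of 76 in TAZ-CAMTA1, 29 of 92 in YAP5SA, 25 of 80 in TFE3 and 27 of 75 in YAP-TFE3, or 31.3 to 36.8%. In number this was 22 to 29 strong peaks in every list. TAZ4SA had the most member peaks and the fewest strong ones.

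Summed over the windows, the area was 159983 in EV, 92706 in TAZ4SA, 230618 in CAMTA1, 276894 in TAZ-CAMTA1, 174604 in YAP5SA, 303586 in YAP-TFE3 and 137318 in TFE3. Its CV was 39.0%, close to the 40.3% of the whole lists, so the summed area was not even between lists. As a share of the area of its list it lay between 0.0947% in YAP5SA and 0.122% in EV, with a CV of 9.12%. The stretch between the windows had a CV of 6.12% by the same measure, so an even share of the area was not particular to the histone windows. The covered length beside these sums differed 1.70-fold between lists and the sums 3.27-fold.

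**Figure D2:**
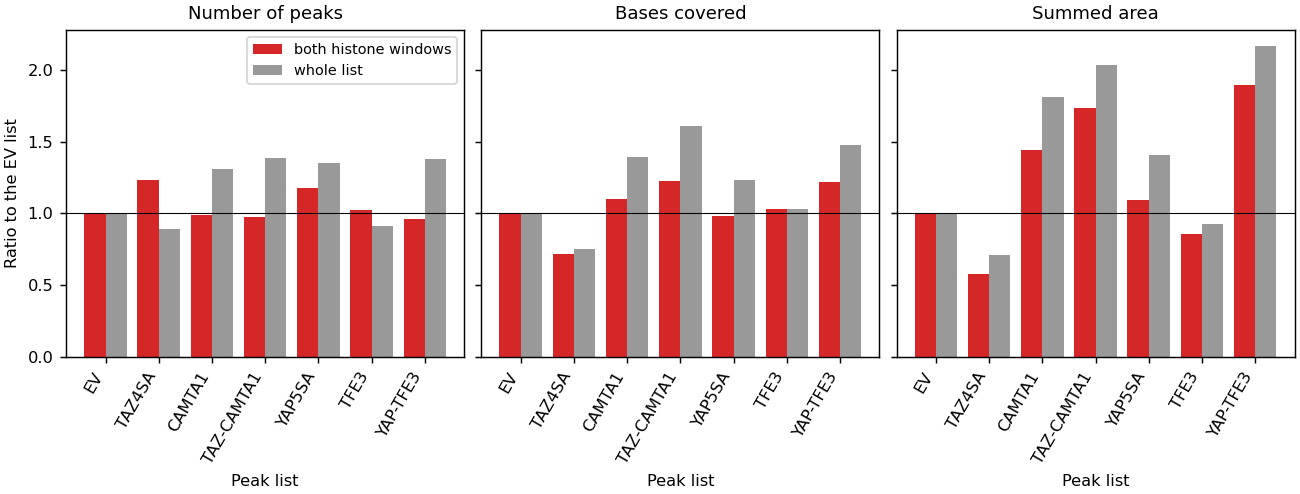
Bars give each list's number of peaks, bases covered and summed area divided by the value of the EV list (no unit), for both histone windows (red) and the whole list (grey). In number the red bars stay between 0.962 and 1.23, and in summed area they run from 0.579 in TAZ4SA to 1.90 in YAP-TFE3.

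To follow single places through the lists, overlapping peaks of all lists were merged to sites. The windows held 71 sites, 55 in the longer and 16 in the shorter one. Of these, 33 had a peak in all 7 lists (46.5%, 95% Wilson interval 35.4 to 58.0), against 16.2% of all 372133 sites of the genome. The share was 23 of 55 sites (41.8%) in the longer window and 10 of 16 (62.5%) in the shorter one. Sites with a peak in 1, 2, 3, 4, 5 and 6 lists numbered 14, 3, 7, 6, 1 and 7. The largest classes were thus the sites of every list and those of 1 list, with the rest spread between.

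Width went with the number of lists. Part of this is built in, since a site spans the overlapping peaks of every list that has one. All 20 member sites of at least 2 kb had a peak in every list, as did 98.7% of such sites in the genome. Of the 38 member sites under 500 bp, 4 did (10.5%, 95% Wilson interval 4.17 to 24.1), against 2.44% in the genome. Among the 33 shared sites, 20 were at least 2 kb wide (21.8% of shared sites over the genome), and their median width was 2153 bp against 1226 bp. A high share of wide sites was thus what the windows had more of than the genome, and at that width nearly every site anywhere was shared.

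The 33 shared sites held nearly all of the signal, between 97.5% and 99.95% of the member area in every list. Over the genome the shared sites held 88.7% to 94.9% of the area. The other 38 sites had a median width of 154 bp, were at most 1062 bp wide, and reached at most an area of 1188. They had a peak in 10 cases in EV, 2 in TAZ4SA, 17 in CAMTA1, 28 in TAZ-CAMTA1, 13 in YAP5SA, 28 in YAP-TFE3 and 14 in TFE3. Both fusion lists had the most of these sites, and TAZ4SA had the fewest. The order at the ends was that of the genome, where of all sites outside the shared set TAZ-CAMTA1 had a peak at 48.6%, YAP-TFE3 at 44.9% and TAZ4SA at 16.4%. The 14 sites of a single list were 6 of YAP-TFE3, 5 of TAZ-CAMTA1, 2 of YAP5SA and 1 of CAMTA1, none with an area above 84.4.

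Of the 7 sites with a peak in 6 lists, 6 lacked TAZ4SA, which was also the missing list at 64.3% of the 24605 such sites of the genome. At 6:26017583-26018213 the area was 190 in EV, 548 in CAMTA1, 927 in TAZ-CAMTA1, 472 in YAP5SA, 1123 in YAP-TFE3 and 479 in TFE3. At its neighbour 6:26016602-26017424 it was 181, 699.8, 806, 312, 1188 and 373 in the same order. Both were highest in YAP-TFE3 and lowest in EV among the lists with a peak. The other sites without a TAZ4SA peak were 6:26066208-26066531, 6:26235649-26235794, 6:26252923-26253300 and 6:27803933-27804439, with a median area over all 7 lists of 193, 292, 110.1 and 67.0. The seventh site, 6:27793632-27794693, had no peak in EV. Its area was 23.5 in TAZ4SA, 739.5 in CAMTA1, 692 in TAZ-CAMTA1, 121 in YAP5SA, 991 in YAP-TFE3 and 146 in TFE3, so it was near the caller's minimum in TAZ4SA and highest in the YAP-TFE3 list.

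A shared site was often cut into several peaks, and the lists differed in how often. The mean number of peaks per shared site was 1.97 in EV, 2.85 in TAZ4SA, 1.73 in CAMTA1, 1.42 in TAZ-CAMTA1, 2.33 in YAP5SA, 1.39 in YAP-TFE3 and 1.85 in TFE3. Over all 60372 shared sites of the genome these means lay between 1.28 and 1.67. TAZ4SA had more peaks than YAP-TFE3 at 22 of the 33 sites and fewer at 2, whereas it had more at 29.6% of shared sites of the genome. At sites of at least 2 kb it had more at 16 of 20, against 51.4% of such sites in the genome. The high number of TAZ4SA member peaks thus went with more pieces per site: that list had a peak at 35 of the 71 sites, the fewest of the 7, while TAZ-CAMTA1 and YAP-TFE3 each had one at 61. Over the genome too, TAZ4SA had a peak at the smallest share of sites, 30%, and TAZ-CAMTA1 and YAP-TFE3 at the largest, 57.0% and 53.8%. A count of peaks and a count of open sites ordered the lists differently.

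Neighbouring shared sites were closer together than in the genome. The distance between their centres had a median of 9.75 kb in the longer window (range 1.49 to 32.5 kb) and 6.13 kb in the shorter one (1.20 to 28.0 kb), against 14.9 kb over all chromosomes. The sites of at least 2 kb were spaced by a median of 16.1 kb (5.48 to 48.8 kb) and 16.8 kb (6.13 to 28.0 kb). The spacing of the wide sites was similar in both windows, although it was irregular within each.

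The strongest site of each window was the same in every list, and so was the second of the longer window. Below these the order differed between lists. The sites named next are those with the largest smallest area over the lists, a value set mostly by TAZ4SA, so the lower ones are not among the highest in every list. The first in the longer window was 6:26122615-26127080, with an area of 12139.9 in EV, 8357 in TAZ4SA, 17074 in CAMTA1, 19618 in TAZ-CAMTA1, 13969.9 in YAP5SA, 21667 in YAP-TFE3 and 9872 in TFE3. Next came 6:26156304-26159961, with 11259.7, 7833, 16423, 17954, 13268, 20423 and 9298 in that order. Both sites had their summits within 12 bp of each other in all 7 lists. The site 6:26195402-26200813 was the widest of the longer window at 5412 bp and had areas of 8668, 5996, 14386, 16361, 9738, 18739 and 7831. It was made of 2 peaks in CAMTA1 and of 7 in YAP5SA, and its summit moved by 2302 bp between lists. The sites 6:26053915-26057507 and 6:26031106-26034525 followed, with areas from 5867 and 5449 in TAZ4SA to 15209.5 and 13650.4 in YAP-TFE3.

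In the shorter window the strongest and widest site was 6:27857171-27864015, of 6845 bp, whose areas of 15912 in EV, 7817 in TAZ4SA, 20792 in CAMTA1, 25591 in TAZ-CAMTA1, 15780.3 in YAP5SA, 28901 in YAP-TFE3 and 12316 in TFE3 were above those of any other member site in every list but TAZ4SA. It was a single peak in YAP-TFE3 and 8 peaks in TAZ4SA. The site 6:27804514-27807990 had areas of 9670.1, 5104, 12120.2, 14366, 10368, 14841 and 6810.1 in the same order, in 1 peak in 5 lists, 2 in YAP5SA and 6 in TAZ4SA. The sites 6:27832644-27835935, 6:27774436-27776839 and 6:27777584-27779530 completed the 5, with smallest areas of 4733, 4293 and 1719, each in TAZ4SA. At all of these sites TAZ4SA was lowest, and one of the fusions was highest.

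**Figure D3:**
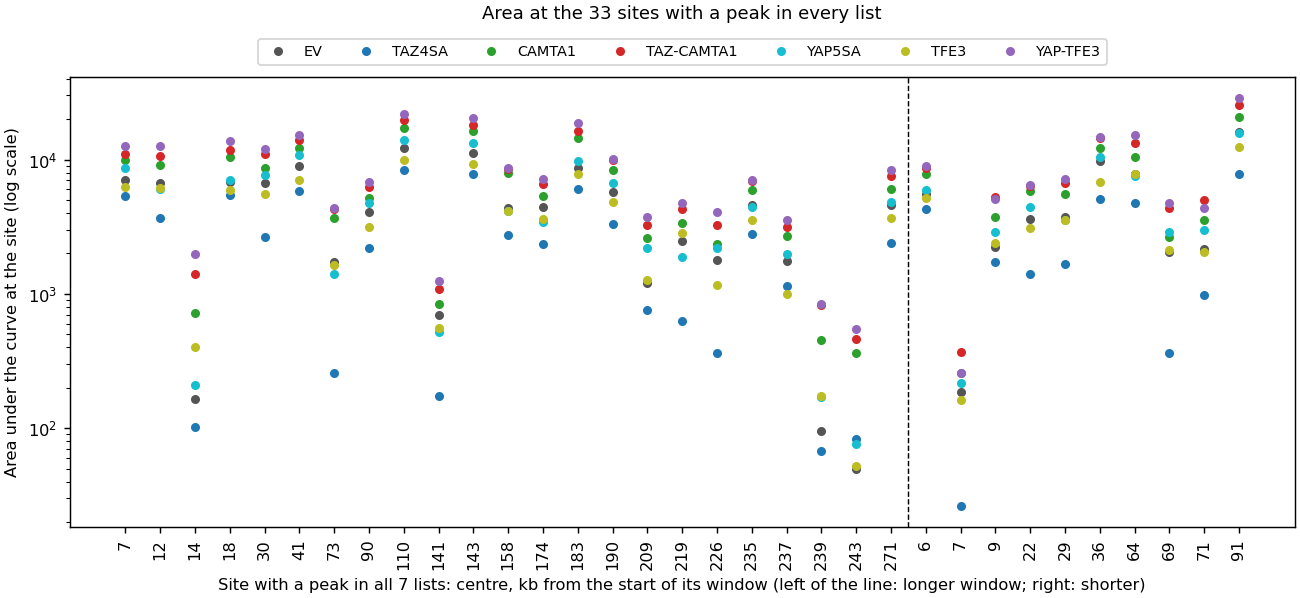
Each column is 1 of the 33 sites with a peak in every list, named by the distance of its centre from the start of its window (kb), and each point is the area under the curve in 1 list, on a log scale. TAZ4SA is lowest at 31 sites, YAP-TFE3 highest at 30 and TAZ-CAMTA1 at the other 3.

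That order of lists held at almost every shared site. TAZ4SA had the lowest area at 31 of the 33 sites, against 64.7% of the shared sites of the genome, and YAP-TFE3 or TAZ-CAMTA1 had the highest at all 33, against 76.7%. The highest area at a site was between 2.07 and 19.6 times the lowest, with a median of 3.46 against 6.38 over the genome. The sites kept their order too: the rank correlation of the areas over the 33 sites lay between 0.963 and 0.996 for the 21 pairs of lists, and between 0.768 and 0.962 over all shared sites. These correlations are descriptions across sites of the same lists, and sites within a window are neighbours and not independent. The genome values in this paragraph were not matched for width or level. The 33 sites were wider, with a median of 2153 bp against 1226 bp.

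Since the lists differed in level everywhere, each area was divided by its list's median area at all shared sites of the genome, from 478 in TAZ4SA to 2189 in YAP-TFE3. The CV of this scaled area over the 7 lists had a median of 28.8% at the 33 sites and of 37.6% at all shared sites. Unscaled, the medians were 41.2% and 56.4%. Most of this lower spread went with width. For sites of 2 to 4 kb the median was 26.1% at 17 member sites and 29.7% at 11612 sites of the genome, and for sites of 4 kb or more it was 24.5% at 3 member sites and 25.7% in the genome. For narrower sites it was 31.2% against 34.7% between 1 and 2 kb (9 member sites) and 44.6% against 47.7% below 1 kb (4 member sites). Among the strongest 10% of shared sites, which held 11 member sites, it was 28.6% against 30.9%. On this scale, at like width or level, the member median was lower than that of the genome by less than 4 percentage points.

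Dividing by the summed area of the list in place of the median lowered the CV at the 33 sites to 15.7%, while all shared sites stayed at 36.5%. In the class of 2 to 4 kb it was then 13.5% at the member sites and 18.5% in the genome. Between 1 and 2 kb it was 18.8% against 33.1%, and at 4 kb or more 10.1% against 15.9%. Below 1 kb it was 48.3% against 48.8%. How even the histone sites looked beside the genome therefore depended on the scale chosen.

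**Figure D4:**
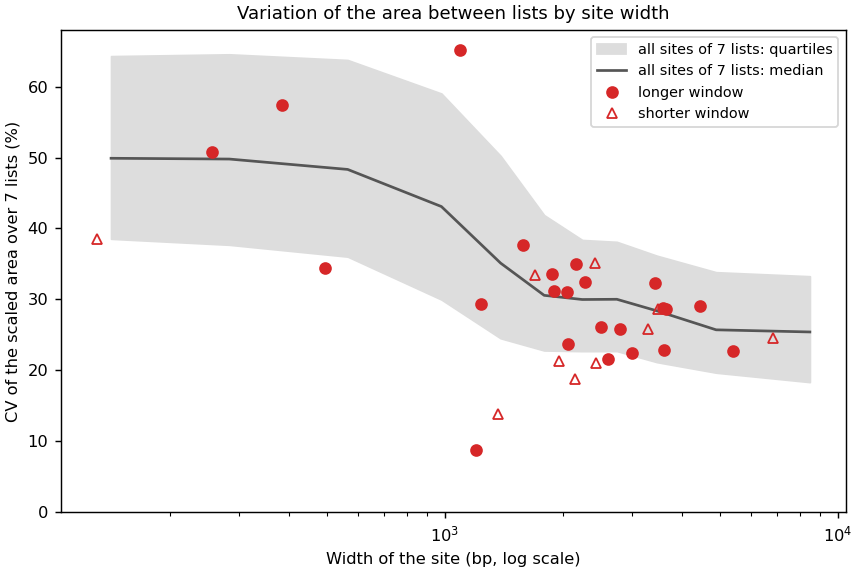
Each point is 1 of the 33 shared member sites, by its width in bp (log scale) and the CV in percent of its scaled area over the 7 lists, with the median (line) and quartiles (band) of all shared sites of the genome. The 20 member sites of 2 kb or more lie between 18.7% and 35.1%, inside or near the band, and the sites farthest from the line are narrower than 2 kb.

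The least variable site was 6:26223504-26224702, with a CV of 8.76% and areas of 1206 in EV, 754 in TAZ4SA, 2595 in CAMTA1, 3237 in TAZ-CAMTA1, 2212 in YAP5SA, 3719 in YAP-TFE3 and 1269 in TFE3. These follow the level of the lists closely. The next were 6:27840417-27841780 (13.9%), 6:27791318-27793459 (18.7%), 6:27797313-27799730 (21.01%) and 6:27777584-27779530 (21.3%), all in the shorter window. The most variable site was 6:26028921-26030011, with a CV of 65.1% and areas of 165 in EV, 102 in TAZ4SA, 724 in CAMTA1, 1415 in TAZ-CAMTA1, 208 in YAP5SA, 1992 in YAP-TFE3 and 402 in TFE3. EV, TAZ4SA and YAP5SA were low there and the fusions high. Next were 6:26257460-26257843 (57.4%) and 6:26253525-26253780 (50.8%), with the same 3 lists lowest at the latter. The last were 6:27777291-27777420 (38.5%) and 6:26087427-26089009 (37.6%), where TAZ4SA stood apart at 26.3 and 257 while the other lists began at 161 and 1404. All 5 most variable sites were narrower than 2 kb.

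Summits moved more between lists at the member sites than over the genome by the median, though not at every width. The range of the summit over the 7 lists had a median of 210.0 bp at the 33 sites and 131 bp over the genome. It was at most 100 bp at 12 of the 33 sites, against 45.6% of shared sites, and at least 500 bp at 7, against 14.8%. Both counts differed from these shares by only a few sites. In the class of 2 to 4 kb the medians were 242 and 185 bp. They were 218 and 156 bp between 1 and 2 kb (9 member sites) and 2302 and 342 bp at 4 kb or more (3 member sites). Below 1 kb (4 member sites) they went the other way, at 68.5 and 89 bp.

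Each vector was then set against EV at the 33 sites, by the ratio of unscaled areas. The 6 comparisons share the EV list, so they are not independent of each other. TFE3 had 2 libraries and EV had 3, so vector and number of libraries cannot be told apart in that comparison. TAZ4SA was higher than EV at 1 site (25.5% of shared sites of the genome were) and its ratio had a median of 0.578. CAMTA1 was higher at all 33 (94.5%), with a median ratio of 1.41, and TAZ-CAMTA1 at all 33 (97%), with 1.74. YAP-TFE3 was higher at all 33 (95.6%), with 1.88. YAP5SA was higher at 23 (74.8%), with 1.14, and TFE3 at 8 (55.6%), with 0.874. At sites of 2 to 4 kb, TAZ4SA was higher than EV at 0 of 17 member sites, against 10.7% in the genome. At that width YAP5SA was higher at 11 of 17, against 79.5%, and TFE3 at 2 of 17, against 32.9%. The shares near the background at CAMTA1 and both fusions say nothing particular about histone sites.

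In each of these comparisons the member median was below the median of all shared sites. That median was 0.639 for TAZ4SA, 2.07 for CAMTA1, 2.40 for TAZ-CAMTA1, 1.32 for YAP5SA, 1.07 for TFE3 and 2.45 for YAP-TFE3. At sites of 2 to 4 kb the 2 medians were nearer to each other in 5 comparisons, 1.37 against 1.62 for CAMTA1, 1.65 against 1.83 for TAZ-CAMTA1, 1.07 against 1.18 for YAP5SA, 0.857 against 0.886 for TFE3 and 1.80 against 1.95 for YAP-TFE3. For TAZ4SA they were slightly farther apart, 0.578 against 0.649. On the scaled areas every list was below EV at the member median, with ratios from 0.564 in CAMTA1 to 0.924 in TAZ4SA. The higher values of CAMTA1, YAP5SA and both fusions thus turned lower when divided by the list medians. Which list came nearest to EV depended on the scale. As a share of the summed area of the list, the windows held 0.122% in EV, 0.113% in TFE3 and 0.0994% in TAZ4SA. By that share both fusions also lay above TAZ4SA, at 0.107% in YAP-TFE3 and 0.104% in TAZ-CAMTA1. On the scale of the list medians, the medians of all shared sites also moved, to between 0.755 and 1.02. Shared sites of 2 to 4 kb in the genome had medians of 0.649 to 0.721, and 1.04 in TAZ4SA. Member sites of that width had 0.549 to 0.697, and 0.924 in TAZ4SA. In the lists other than TAZ4SA, falling below EV on this scale was thus not particular to the histone sites.

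The fusions were next set against the full-length proteins. TAZ-CAMTA1 was higher than TAZ4SA at all 33 sites (93.6% of shared sites of the genome), with a median ratio of 3.12 against 3.79 over the genome. It was higher than CAMTA1 at all 33 (65.9%), with a narrow range of ratios around 1.20 (quartiles 1.16 and 1.28), and 28 of the 33 ratios were above the genome median of 1.12. Here the histone sites differed from the background in count more than in size. YAP-TFE3 was higher than YAP5SA at all 33 (83.8%), with a median ratio of 1.75 against 1.71, and higher than TFE3 at all 33 (97.2%), with 2.17 against 2.28. At 2 to 4 kb these medians were 1.55 against 1.60 and 2.10 against 2.21. YAP-TFE3 was higher there at 17 of 17 member sites in both, against 92.4% and 99.7%. Between the fusions, TAZ-CAMTA1 was higher than YAP-TFE3 at 3 of the 33 (39.9%), with a median ratio of 0.913 against 0.939. At 2 to 4 kb it was higher at 0 of 17 (28.0%), with 0.918 against 0.922. With width matched, the member median thus changed sides of the genome median in the comparisons with TAZ4SA and YAP5SA.

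**Figure D5:**
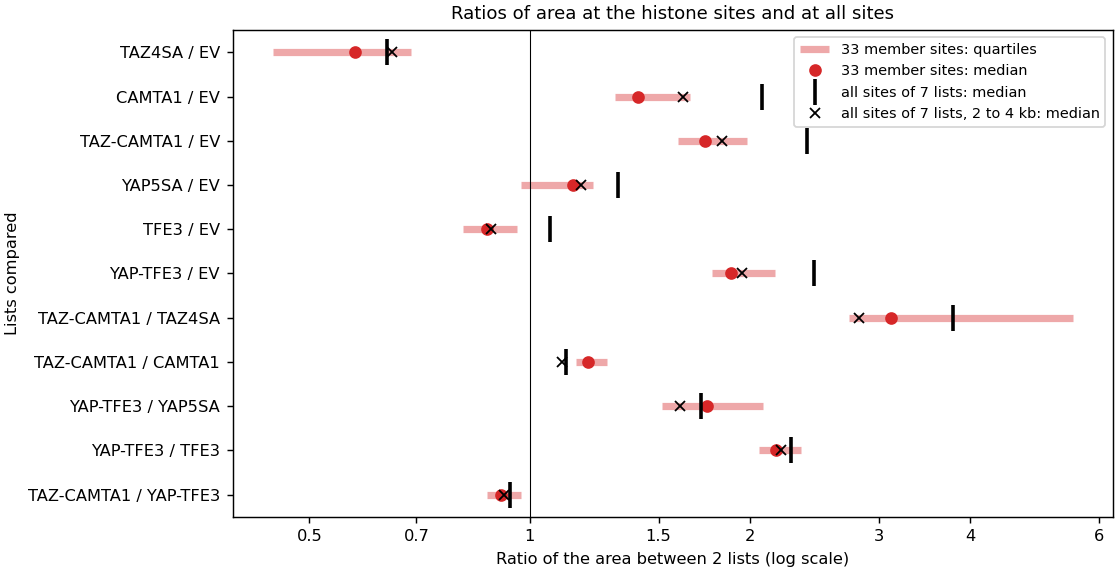
For each pair of lists, the red point and bar give the median and quartiles of the ratio of areas at the 33 shared member sites (log scale, no unit), beside the median of all shared sites (black bar) and of those 2 to 4 kb wide (cross). The red points for CAMTA1 and the fusions against EV lie at 1.41 to 1.88, left of the black bars at 2.07 to 2.45 and nearer to the crosses.

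Member peaks were absent from EV less often than the peaks of the whole lists. Member peaks that overlapped no EV peak numbered 2 of 96 in TAZ4SA (2.08%, against 33.9% of the whole list), 17 of 77 in CAMTA1 (22.1% against 46.8%) and 24 of 76 in TAZ-CAMTA1 (31.6% against 51.5%). In YAP5SA they were 11 of 92 (11.96% against 47.9%), in TFE3 13 of 80 (16.3% against 27.6%) and in YAP-TFE3 23 of 75 (30.7% against 50.7%). The member share was below that of the list in all 6 at an overlap of 1 bp. These shares were not matched for width, and member peaks were wider than those of their lists. Pieces of 1 site also count separately: 94 of the 96 TAZ4SA member peaks lay in the 33 shared sites. Over the 6 lists together, 18.1% of member peaks had no EV peak, against 44.6% of all peaks, and these shares rose to 49.0% and 66.4% where 50% of each peak had to be covered. By the 1 bp rule, the peaks without an EV peak were small, with median areas of 22.4 in TAZ4SA and 101 in TAZ-CAMTA1. In the other direction, 26 of the 78 EV member peaks had no TAZ4SA peak (33.3% against 49.5% of the whole EV list), 1 had no TAZ-CAMTA1 peak (1.28% against 14.4%) and 2 had no YAP-TFE3 peak (2.56% against 19%). What EV held in the histone windows was thus nearly all present in both fusion lists.

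The edges of the windows cut through no peak. The first site inside the longer window was 6:26016602-26017424 and the last 6:26284793-26286849. The nearest sites outside it were 6:26003438-26003612, with a peak in 2 lists and an area of at most 67.0, and 6:26295696-26297507, with one in all 7 and areas from 615 to 5718. The shorter window opened with 6:27774436-27776839 and closed with 6:27857171-27864015. A site of all 7 lists with areas from 109.2 to 1254 lay 5686 bp before it, and another, 6:27870023-27871603 with areas from 2710.3 to 6955, began 23 bp after it, so a strong site lay just outside the rule.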

How the data were processed

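ATAC-seq libraries of SW872 cells had been trimmed with NGmerge, aligned, stripped of PCR duplicates and called with Genrich 1.0.8 in its ATAC mode by the authors, without the hg19 artefact blacklist, the mitochondrial genome and some contigs. The labels name Bowtie 0.12.2 and build mm8, which go against the hg19 contig names of the lists. The methods describe calling per replicate, whereas 1 list per vector was deposited; how libraries were combined is not given in the sources used here. The deposited lists hold a signal (the area under the curve of each peak), the −log10 p of the summit and a score (the mean area per base times 1000, at most 1000), which was used only to check the area. Read depth is unknown, and level and depth cannot be told apart. For TFE3, with 2 libraries, level and number of libraries cannot be told apart either.

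Peaks overlapping the windows by at least 1 bp were taken with Python 3.11.15, numpy 2.4.6, pandas 2.3.3 and scipy 1.17.1, and figures were drawn with matplotlib 3.10.9. Sites are peaks of all lists merged where they overlap. The named sites are, in each window, the 5 with the largest smallest area and the widest, over both windows the 5 least and the 5 most variable, and every site with a peak in 6 lists. Members, lists and rules were chosen with earlier results of these data known, and the octamer and the tiles of like peak number were added last. Alternatives were only peaks of summit −log10 p 4 or more, equal list lengths (152702 peaks), 250 bp to each side of the summit, other overlaps and scales, single windows, and single lists left out. The scripts were tested on simulated data.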

Additional observations from a re-analysis of the deposited data

How the results depend on the processing

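Of 92 alternative values of 10 results, 75 stayed within 1.5 times the reported value, or within the Wilson interval for shares, and 17 moved. The cause of a move was not tested unless the alternative itself gives it. The CV of the member peak number (10.3%) became 15.8% and 16.2% with lists of equal length, ranked by −log10 p or by area, 5.99% with windows of 250 bp on either side of each summit, and 22.4% in the shorter window alone. The CV of bases covered (16.6%) was 8.66% on these summit windows and 9.85% without the TAZ4SA list, so that list set much of the spread. In the shorter window alone the median width (351 bp) became 808 bp, the median area (349) 692 and the share of sites in every list (46.5%) 62.5%. The median area was 688 over peaks whose summit −log10 p was 4 or more, and 587 with equal lists by −log10 p. On the summit windows the median gap (337 bp) became 1694 bp and the share of sites in every list 32.3%. The CV of the scaled area (28.8%) was 15.7% when scaled by the list total, 15.4% per covered base and 7.94% for the summit −log10 p. Over all shared sites of the genome (37.6%) it was 36.5%, 25.8% and 12.1% in this order, so the last 2 measures were more even there too. The share of member peaks overlapping an EV peak (81.9%) was 51.0% with an overlap of 50% of both peaks. No paired analysis was possible because 1 list stands for all libraries of a vector. Single libraries could not be left out for the same reason.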
